A study of Mus musculus with 10 samples.

Results

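The cytosolic ribosomal protein genes, which encode the proteins of the ribosomes outside mitochondria, were examined for DNA methylation at both ends of each gene in mouse embryos at embryonic day 7.5. Members were the autosomal protein-coding genes of the RefSeq gene table whose symbol starts with Rpl or Rps and a digit, together with Rpsa, Rplp0, Rplp1 and Rplp2. Kinases named Rps6k and pseudogene names were left out. This gave 85 of 20665 autosomal protein-coding genes. The rule used names only and no measured value. It also takes in Rps19bp1, a protein that binds Rps19 and is not part of the ribosome, and copies of ribosomal protein genes that are described apart. Each end was a window of 1000 bp on both sides of the gene's first or last base, and an end with at least 3 measured cytosine positions counted as measured. Of the 170 ends, 96 were measured, in 75 of the 85 genes, out of 18258 measured ends of all these genes. Of the 96, 73 were under 10%, 2 between 10% and 20%, and 21, in 17 genes, over 20%, which is 21.9% against 36% of the 18258.

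Reduced representation bisulfite sequencing enriches CpG-rich DNA by restriction digestion and size selection, and bisulfite turns unmethylated cytosine into a base read as thymine. The titles name 5 control and 5 arsenic samples of embryos, and the study compared these groups. The labels give no strain, sex, dose, route or time of arsenic, and no number of embryos per sample. The deposited counts come in 10 sets numbered 1 to 10, called library columns here, and no number names a group. Therefore arsenic and control were not compared, no groups of columns were tested against each other, and values are given for the summed columns with the lowest, median and highest column. The level of an end is the methylated calls divided by all calls, in percent, so that a level of 100% would mean that each read was methylated. DNA came from whole embryos, in which a share of methylated cells and a share of methylated alleles cannot be told apart. The table holds no expression values against which the tissue label could be checked.

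A ribosome has a small subunit, which decodes the messenger RNA, and a large subunit, which joins the amino acids. Rps genes and Rpsa encode the proteins of the small subunit, Rpl genes those of the large subunit, and Rplp0, Rplp1 and Rplp2 the stalk of the large subunit that recruits translation factors. Nearly all cells use these genes strongly, their starts lie mostly in CpG islands, and such islands are as a rule free of methylation. Many carry an oligopyrimidine tract at the first transcribed base, the TOP motif, through which growth signals control their translation. The family has left many reverse-transcribed copies in the genome, a few of which became genes used in single tissues such as the testis.

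The RefSeq promoter table (GRCm38.p6, the assembly of mm10) listed 77 starts for 65 of the 85 members, each with 250 bases before and 50 after the start, and gave their strand. Members with no entry include Rpl7, Rps20, Rpl21, Rpl32, Rplp1, Rpl29, Rps27a, Rpl23a, Rps29, Rpl30, Rpl8, Rpl3, Rpl36, Rps14 and Rpl17, for which the ends are called lower and higher by coordinate. In the promoters of all autosomal protein-coding genes, 141811 of 141811 measured positions fell on a C of the measured strand. The following sequences show the range of the family, from starts near 0 to starts over 40%. They run 5′ to 3′ over 250 bases before the listed start and the first 30 bases from it on, and capitals mark CG pairs with a measured cytosine. The first pair are testis-associated copies, the next an upstream start of Rpl22, and the next the second start of Rps24. The last 3 are Rpl36al, the member promoter with the most CG pairs, Rpl13a, whose promoter had the lowest level, and Rps6, the small-subunit protein phosphorylated by the S6 kinases.
Rpl10l, chr12:66284372-66284651, minus strand: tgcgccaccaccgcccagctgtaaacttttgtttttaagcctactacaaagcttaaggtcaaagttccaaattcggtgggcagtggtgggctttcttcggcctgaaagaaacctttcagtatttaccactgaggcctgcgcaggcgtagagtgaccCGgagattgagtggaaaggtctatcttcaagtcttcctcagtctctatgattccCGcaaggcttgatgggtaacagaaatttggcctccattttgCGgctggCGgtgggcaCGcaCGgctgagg
Rpl39l, chr16:10169978-10170257, plus strand: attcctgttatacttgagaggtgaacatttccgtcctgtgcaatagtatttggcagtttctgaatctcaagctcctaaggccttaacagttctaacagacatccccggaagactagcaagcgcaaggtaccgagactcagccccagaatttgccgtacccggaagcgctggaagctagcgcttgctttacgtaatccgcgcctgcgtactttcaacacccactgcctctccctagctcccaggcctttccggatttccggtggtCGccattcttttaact
Rpl22, chr4:152324186-152324465, plus strand: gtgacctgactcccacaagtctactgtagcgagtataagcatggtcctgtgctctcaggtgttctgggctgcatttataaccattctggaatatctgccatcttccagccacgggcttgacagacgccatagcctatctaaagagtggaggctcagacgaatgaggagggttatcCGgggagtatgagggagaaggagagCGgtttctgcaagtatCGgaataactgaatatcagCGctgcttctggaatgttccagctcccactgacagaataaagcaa
Rps24, chr14:24490503-24490782, plus strand: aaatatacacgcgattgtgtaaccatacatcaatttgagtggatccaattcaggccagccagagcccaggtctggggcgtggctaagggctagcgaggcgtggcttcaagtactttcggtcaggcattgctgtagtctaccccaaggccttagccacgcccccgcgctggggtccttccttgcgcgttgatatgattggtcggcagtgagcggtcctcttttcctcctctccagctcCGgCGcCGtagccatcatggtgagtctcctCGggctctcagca
Rpl36al, chr12:69184038-69184317, minus strand: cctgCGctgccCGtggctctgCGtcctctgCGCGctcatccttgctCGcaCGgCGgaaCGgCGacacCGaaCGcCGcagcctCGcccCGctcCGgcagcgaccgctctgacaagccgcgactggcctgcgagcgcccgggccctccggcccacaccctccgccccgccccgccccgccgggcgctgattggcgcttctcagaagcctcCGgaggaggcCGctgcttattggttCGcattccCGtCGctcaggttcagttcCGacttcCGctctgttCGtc
Rpl13a, chr7:45128716-45128995, minus strand: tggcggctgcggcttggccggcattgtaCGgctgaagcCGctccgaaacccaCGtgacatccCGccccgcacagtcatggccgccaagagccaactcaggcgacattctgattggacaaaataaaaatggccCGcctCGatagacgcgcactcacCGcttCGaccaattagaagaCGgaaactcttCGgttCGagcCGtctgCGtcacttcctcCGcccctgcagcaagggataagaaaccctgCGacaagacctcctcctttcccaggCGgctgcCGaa
Rps6, chr4:86857338-86857617, minus strand: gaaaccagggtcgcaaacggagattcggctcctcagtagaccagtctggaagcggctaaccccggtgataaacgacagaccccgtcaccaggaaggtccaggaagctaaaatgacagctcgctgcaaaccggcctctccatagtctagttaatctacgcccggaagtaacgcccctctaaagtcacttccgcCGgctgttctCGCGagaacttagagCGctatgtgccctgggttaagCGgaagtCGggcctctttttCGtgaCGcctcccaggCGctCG

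Over the 11 positions measured in the Rpl10l sequence the level was 63.2%, and over the 7 in the upstream Rpl22 sequence 49.6%. The 46 positions in the Rpl36al sequence had a level of 0.505%, the 17 of Rpl13a 0.218% and the 19 of Rps6 0.574%. The 7 positions in the Rps24 sequence had 1.70%. The Rpl10l sequence holds 12 CG pairs and the upstream Rpl22 sequence 8, against 17 to 39 in those of Rps24, Rps6, Rpl13a and Rpl36al. These sequences were picked to show the range, so no link between CG number and level is read from them. The listed promoters, which reach further into the gene than these sequences, include ones with few CG pairs and low levels. That of Rpl6, with 8 CG pairs, had 2.31%, and that of Rpl11, with 10, had 1.77%. The Rpl39l promoter, with 17 CG pairs, had 65.1% over 4 positions. In the Rpl39l sequence only 1 of 15 pairs was measured, and the other measured positions of this gene lie further inside it.

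Starts of ribosomal protein genes were nearly free of methylation. Of 56 starts that were measured in the 65 members with strand, 37 had a level under 2%, and the median was 1.44%, with 1.23% in the lowest and 1.55% in the highest column. The starts of all 10359 protein-coding genes with strand and enough positions had a median of 2.17%, with columns from 2.10% to 2.44%, and 47.9% of them were under 2%. Over 20% were 7 of the 56 member starts, which is 12.5%, against 17.2% of all protein-coding starts. The medians of the single columns did not overlap between members and all starts, but each column holds the same genes, so this shows spread between libraries only. The quartiles of single starts did overlap, from 0.970% to 2.39% for members and from 1.09% to 9.71% for all starts. The 2 sets also differ in CpG content. Member promoters held 21 CG pairs in the median and protein-coding promoters as a whole 14, and a start window of a member had 47 measured positions in the median against 36.

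**Figure D1:**
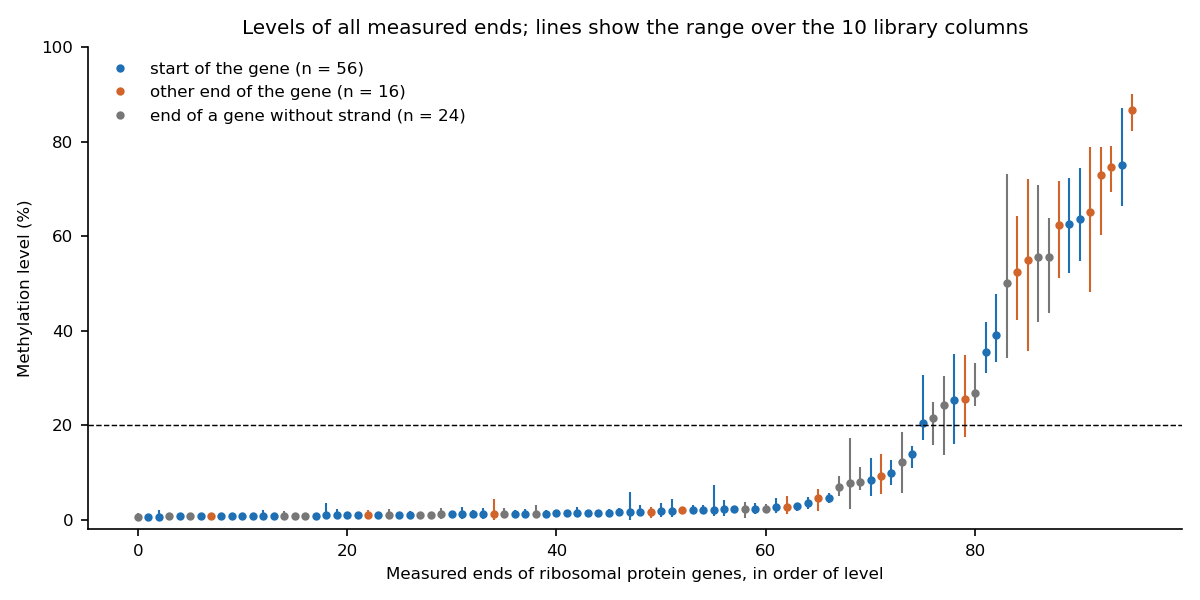
Methylation level in percent (vertical axis) of the 96 measured ends of ribosomal protein genes, in order of level (horizontal axis), for starts (blue), other ends (orange) and ends of genes without strand (grey). Points give the level over the summed columns, lines the range over the 10 library columns and the dashed line 20%. Most ends lie near 0, and 21 lie above the line.

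Within the 300-base promoters with enough positions the levels were lower still. Of 51 member promoters with at least 3 positions, in 45 genes, 44 were under 2% and the median was 0.968%. Over 20% were 3 of the 51, the promoters of Rpl10l, Rpl39l and the upstream Rpl22 start. Among all protein-coding promoters 604 of 7724, or 7.82%, passed this level. With only 3 member promoters over 20%, no difference is read from these counts. The median of all protein-coding promoters was 1.18%. The lowest member was Rpl13a at 0.206%, with columns from 0 to 0.909%, followed by Rps23, a protein of the decoding centre, at 0.297%, and by Rps13 at 0.409%. No position was measured in 25 of the 77 member promoters, and 6 of these 25 had none within 1000 bp of the listed start either. The 25 include promoters of Rpl37rt, Rpl3l and Rpl41, whose start windows were over 20%. The measured promoters and the measured start windows are therefore not the same set of genes.

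Around the listed starts the unmethylated stretch reached further into the gene than upstream of it. For members without the copies and without Rps19bp1, the mean level of a position was 1.62% in the last 250 bp before the start and 1.37% in the first 250 bp after it. It was 1.17% from 250 to 500 bp, 1.66% from 500 to 750 bp and 4.26% from 750 to 1000 bp inside the gene. Upstream it was 3.41% from 250 to 500 bp, 6.49% from 500 to 750 bp and 18.3% from 750 to 1000 bp, the last from 52 positions of 9 genes only. The corresponding values of all protein-coding genes were 3.34% and 3.80% next to the start, and 12.3% at 750 to 1000 bp inside and 16.8% at that distance upstream. In all bins but the farthest upstream one the columns of the members did not overlap those of all genes. In the farthest upstream bin they did. The copies were left out on the member side only. Their starts include Rpl37rt at 75.1%, Rpl39l at 63.5%, Rpl10l at 62.5% and Rpl3l at 35.5%. They also include Rpl7l1 at 1.42%, Rpl36al at 1.01% and Rpl22l1 at 0.800%. Rpl37rt was grouped with the copies after its values were seen. How far the gap to all genes depends on leaving out the copies was not tested.

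**Figure D2:**
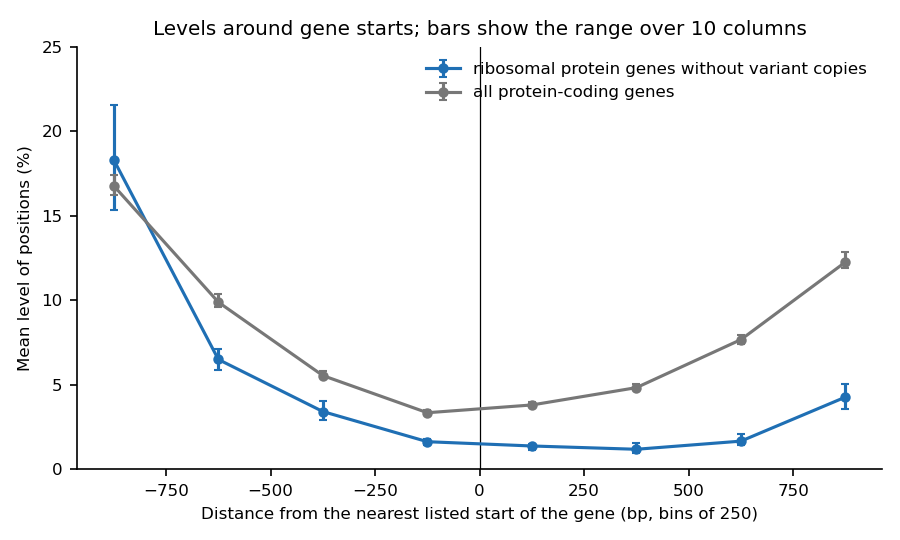
Mean methylation level of single positions in percent (vertical axis) by signed distance in bp from the nearest listed start of the gene (horizontal axis, negative upstream), in bins of 250 bp, for ribosomal protein genes without variant copies (blue) and all protein-coding genes (grey). Bars give the range over the 10 library columns. Members stay between 1.17% and 1.66% from 250 bp upstream to 750 bp inside the gene and reach 18.3% in the farthest upstream bin.

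The large subunit had 28 measured starts with a median of 1.39%, and 2 of them, Rpl22 and Rpl41, were over 20%. Rpl4, a protein of the wall of the exit tunnel, was the lowest of all member starts at 0.603% (95% Wilson interval 0.521 to 0.697%, 66 positions, chromosome 9 from 64172387 to 64174387). Its columns lay between 0.349% and 0.850%. Rpl12, a protein next to the stalk, was at 0.735% with columns from 0.284% to 1.17%. Rpl11, which binds 5S ribosomal RNA together with Rpl5, had 0.972% over 101 positions, with columns from 0.603% to 1.21%. In these genes no column reached 2%, so the low level did not rest on single libraries. The intervals cover counting error only and are too narrow, since neighbouring calls share reads and PCR copies of a fragment are not separate molecules.

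The small subunit had 18 measured starts with a median of 1.35%, and Rps24 alone was over 20%. Rps7 was the lowest at 0.660% with columns from 0.259% to 2.01%, and Rps26 followed at 0.678% with columns from 0.464% to 1.02%. Rpsa, which is also known as the laminin receptor, had 0.740% over 79 positions. Rps19, the gene most often mutated in Diamond-Blackfan anaemia, had 1.46% over 95 positions with columns from 0.900% to 1.90%. Rps6 was at 1.58% with columns from 0.796% to 2.53%. Of the stalk genes, Rplp2 had 0.675% and Rplp0 2.04% at the start, and Rplp1, without strand, 0.554% at its higher end. Rplp1 thus had the lowest level of the 96 measured member ends.

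Of the 6 variant copies with a measured start, 3 were over 20% there and 3 under 2%. Of all protein-coding starts 17.2% were over 20% and 47.9% under 2%. Rpl10l is an autosomal retrocopy of the X-linked Rpl10 and is known from the testis. Its start (chromosome 12 from 66283401 to 66285401) had a level of 62.5% over 42 positions (interval 61.8 to 63.2%), with a lowest column of 52.1%, a median of 61.2% and a highest of 72.2%. Each of the 42 positions was over 40%. The 18 positions within 100 bp of the start had 60.9% and the 24 positions 300 to 600 bp inside the gene 64.0%, so no unmethylated stretch was seen at the start.

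Rpl39l, a copy of the X-linked Rpl39 also known from the testis, had 63.5% over 14 positions (chromosome 16 from 10169197 to 10171197), with columns from 54.8% to 74.4% around a median of 64.3%. Its measured positions lay from 46 to 225 bp inside the gene end and ranged from 33.6% to 87.1%. Rpl3l, which replaces Rpl3 in striated muscle, had 35.5% over 16 positions (chromosome 17 from 24726826 to 24728826), with columns from 31.0% to 41.8% around a median of 34.8%. All of these lay 350 to 856 bp inside the gene, and neither of its 2 listed promoters, with 2 and 3 CG pairs, held a measured position. The level of Rpl3l is therefore that of the gene's first part and not of its promoter.

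The other copies resembled the standard genes. Rpl22l1, the second gene for an Rpl22 protein, had 0.800% over 74 positions, with columns from 0.331% to 1.31%. Rpl36al, the autosomal partner of the X-linked Rpl36a, had 1.01% over 167 positions, the largest number at a member end, with columns from 0.712% to 1.20%. Rpl7l1 had 1.42% at its start. Rps27l, the partner of Rps27, had no measured end, but 0.640% over the 53 positions within 1000 bp of each of its listed starts, which lie 1462 and 1789 bp inside the gene's outermost base. Rps27rt had no measured end either.

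Rpl37rt, by its name a retrotransposed copy of Rpl37, which was grouped with the copies after its values were seen, had the highest levels of the family. Its other end had 86.7% over 24 positions (chromosome 5 from 115101922 to 115103922), with columns from 82.3% to 90.1%, and its start 75.1% over 6 positions (chromosome 5 from 115109268 to 115111268), with columns from 66.3% to 87.1% around a median of 74.8%. Its start window overlaps the gene Acads. Rpl37 itself, the source of the copy, had 1.16% at its start. Rpl32l and Rps23rg1, also copies by name, had no measured end. Retrocopies can share reads with their source genes and pseudogenes, and how ambiguous reads were treated is not given in the sources used here. Reads per position and column averaged 42.3 at the Rpl10l start, 41.3 at Rpl39l and 67.2 at the Rpl37rt start, with a median of 41.3 over the measured member ends.

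The other 3 starts over 20% were those of the standard genes Rps24, Rpl22 and Rpl41. The window of Rps24, a protein mutated in Diamond-Blackfan anaemia (chromosome 14 from 24489678 to 24491678), had a level of 20.4% over 25 positions, with a lowest column of 16.9%, a median of 18.9% and a highest of 30.5%. It held 17 positions from 62 to 169 bp inside the gene at 1.27%, with columns from 0 to 2.66%, and 8 positions from -943 to -696 bp (negative numbers lie outside the gene) at 54.0%, with columns from 45.9% to 62.9%. No position in between was measured. The level of 20.4% is thus an average of a part near 0 and a part over 40%, found at no position of the window. With library column 10 left out it was 19.6%, and within 500 bp it was 1.27%.

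Rpl22, which also binds viral RNA and is needed in T cell development, had 39.1% over 26 positions at its outermost base (chromosome 4 from 152323436 to 152325436), with columns from 33.3% to 47.7% around a median of 38.9%. RefSeq lists a second start 1290 bp further inside. The 13 positions next to the upstream start had 50.1% and the 13 positions from 174 to 600 bp had 21.1%. The 36 positions from 1622 to 2116 bp, past the second start, had 0.656%, with columns from 0.249% to 1.44%. Levels in this gene stepped down from the upstream toward the second start, whose own promoter window held no measured position. The upstream window overlaps the long non-coding RNA gene 9430083M05Rik.

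Rpl41, the shortest ribosomal protein, had 25.3% over 11 positions at its start (chromosome 10 from 128548168 to 128550168), with columns from 16.0% to 34.9% around a median of 23.8%. Of these positions, 10 lay 837 to 970 bp inside the gene, next to its other end, and had 24.1%. The remaining 1, at -750 bp, had 80.4%. No position within 500 bp of the start was measured, so the start of Rpl41 itself was not seen. The 10 positions had 131 reads per position and column, against a median of 41.3 over all member ends, and the window overlaps the pseudogene Gm9176. Whether extra copies add reads there was not tested. The gene's other end, where the start of the neighbour Zc3h10 lies, had 9.22% with columns from 5.33% to 13.9%, and 48 positions from there outward had 1.33%.

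**Figure D3:**
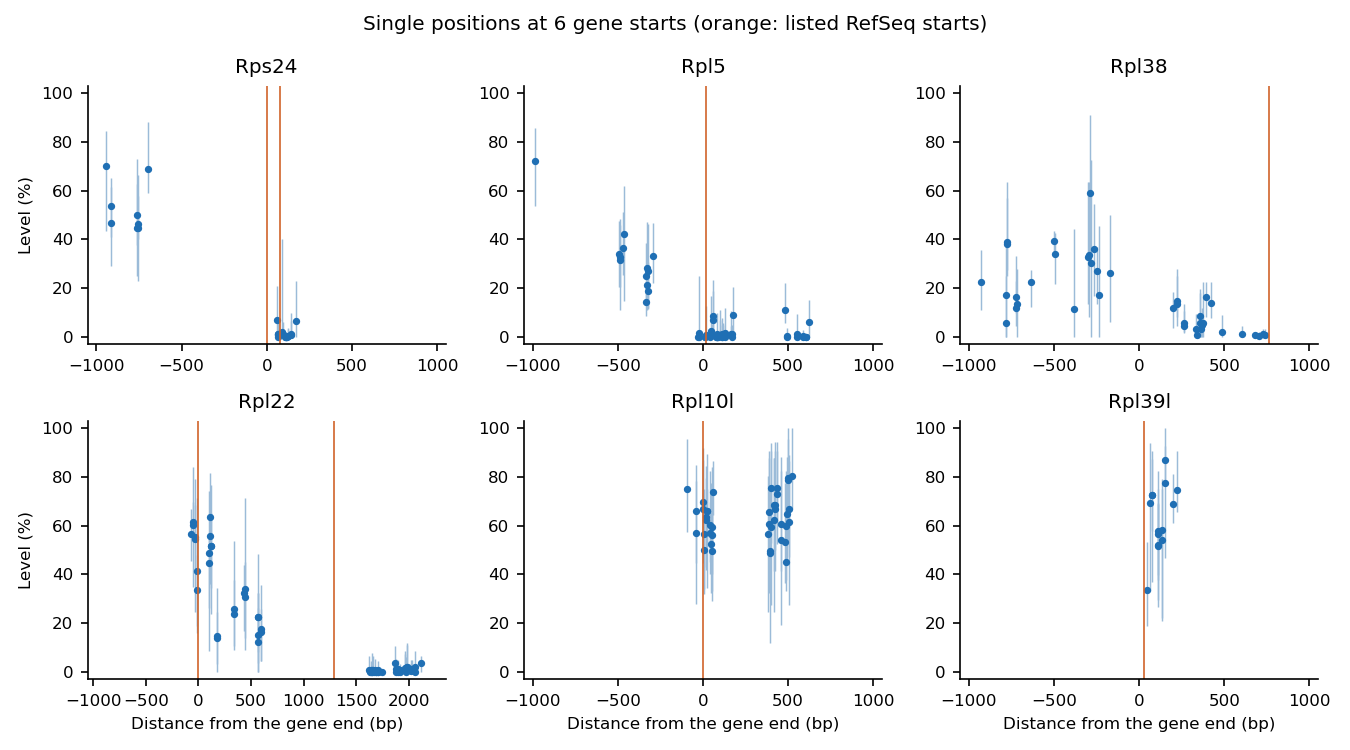
Methylation level in percent of single positions (vertical axes) by distance in bp from the gene's outermost base, positive into the gene (horizontal axes), for 6 member starts. Points give the summed columns, pale lines the range over the 10 columns and orange lines the starts listed by RefSeq. Rps24, Rpl5, Rpl38 and Rpl22 pass from methylated upstream positions to positions near 0, whereas the positions of Rpl10l and Rpl39l stay high.

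The starts next below 20%, those of Rpl38, Rpl5 and Rpl35, had windows of unlike parts too, and only Rpl38 was over 10%. Rpl38, whose loss disturbs patterning of the axial skeleton, had 14.0% over 40 positions with columns from 10.8% to 15.5%. Its 20 upstream positions had 27.5%, while the 5 positions from 604 to 739 bp, next to the start that RefSeq lists at 762 bp, had 0.843%. Rpl5, the partner of Rpl11, had 9.92% over 55 positions with columns from 7.32% to 12.7%. Its 13 upstream positions had 33.1% and its 42 positions from -31 to 625 bp had 1.50%. Rpl35, at the tunnel exit, had 8.46% with columns from 5.01% to 13.1%, made of 19.3% at 7 positions from -964 to -877 bp and 0.720% at 21 positions around the start. Rps19bp1 had 2.06% with columns from 0.815% to 7.36%, of which column 9 was the highest.

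Of the 19 genes without strand that were measured, 16 had at least 1 end under 10%. The matching share of all genes without strand was not computed. The median of all protein-coding ends without strand was 7.37%, so an end under 10% is common there. Over 20% were 6 of the 24 member ends without strand, which is 25%, against 37.6% of protein-coding ends without strand. Rpl21 had 21.5% at its lower end (chromosome 5 from 146831890 to 146833890) with columns from 15.8% to 24.8%, made of 24 positions inside the gene at 0.384% and 6 positions from -883 to -745 bp at 43.3%. The change from under 1% to over 40% thus took place within the window of Rpl21. The 6 positions had 118 reads per position and column and the 24 had 30.4, so the 6 weigh more in the level. With positions weighted equally the end had 9.02%. Whether extra copies add reads at the 6 positions was not tested.

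Among other genes without strand, Rps14, whose loss underlies the anaemia of the 5q- syndrome, had 0.838% at its lower end over 86 positions and 55.5% at its higher end over 23 positions, with columns from 43.8% to 63.7%. Rpl8 had 1.28% at the lower and 50.2% at the higher end, the latter over 4 positions with columns from 34.2% to 73.1%. Rpl3, at the peptidyl transferase centre, was measured at its lower end only, with 55.5% over 5 positions and columns from 41.8% to 70.7%. Rps29 was at 24.3% at the lower end over 8 positions and 7.81% at the higher end over 3, with columns from 2.27% to 17.2% at the latter. The gene is 1465 bp long, its windows overlap, and the 3 positions of the higher end are among the 8 of the lower end. The ends of Rpl3 and Rps29 rest on few positions and were not tied to a start.

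Ends opposite the start were seldom measured and split into low and high ones. Of 65, only 16 were measured, with a median of 17.4% and columns from 13.6% to 22.2%, and 8 of 16 were over 20%, which is 50%, against 81.9% of 4098 such ends of protein-coding genes, whose median was 59.9%. No member level lay between 9.22% and 25.5%, so this median falls in a gap and moved with the settings, to 6.86% with at least 5 positions, 10.7% at a coverage of at least 20 reads, 10.2% with windows of 2000 bp and 25.8% with windows of 500 bp. At 11 of the 16 genes with both ends measured the other end was the higher one, and at 2610 of 3156 protein-coding genes, which are shares of 68.8% and 82.7%. Rps24 had 72.9% there, Rpl22 74.6%, Rpl38 65.2%, Rpl7a 55.0% and Rpl9 52.5%, the last 2 with starts at 1.06% and 0.775%. Rps15 had 25.5% with columns from 17.5% to 34.8%, made of 16.6% at 18 positions inside the gene and 64.9% at 6 positions nearer its end, which also lie inside the gene.

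A listed start of another protein-coding gene lay in 4 of the 16 windows, those of Rpl4, Rpl3l, Rps18 and Rpl41, and their levels were 1.18%, 1.97%, 2.76% and 9.22%. Of the remaining 12 ends, 8 were over 20%, and the 4 low ones were those of Rps21 at 0.734%, Rpl7l1 at 0.973%, Rpl36al at 1.67% and Rpl28 at 4.50%. Rps21, Rpl36al and Rpl28 are shorter than 2000 bp, so that positions of the start can fall in the window of the other end. The same holds among the high ends for Rpl10l, which is 1023 bp long. The 32 positions of its other end, at 62.4%, are all among the 42 of its start, so its 2 ends over 20% are not separate. Over all protein-coding genes, 23.9% of 347 other ends with a neighbour's start in the window were over 20%, and 87.3% of 3751 without one.

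**Figure D4:**
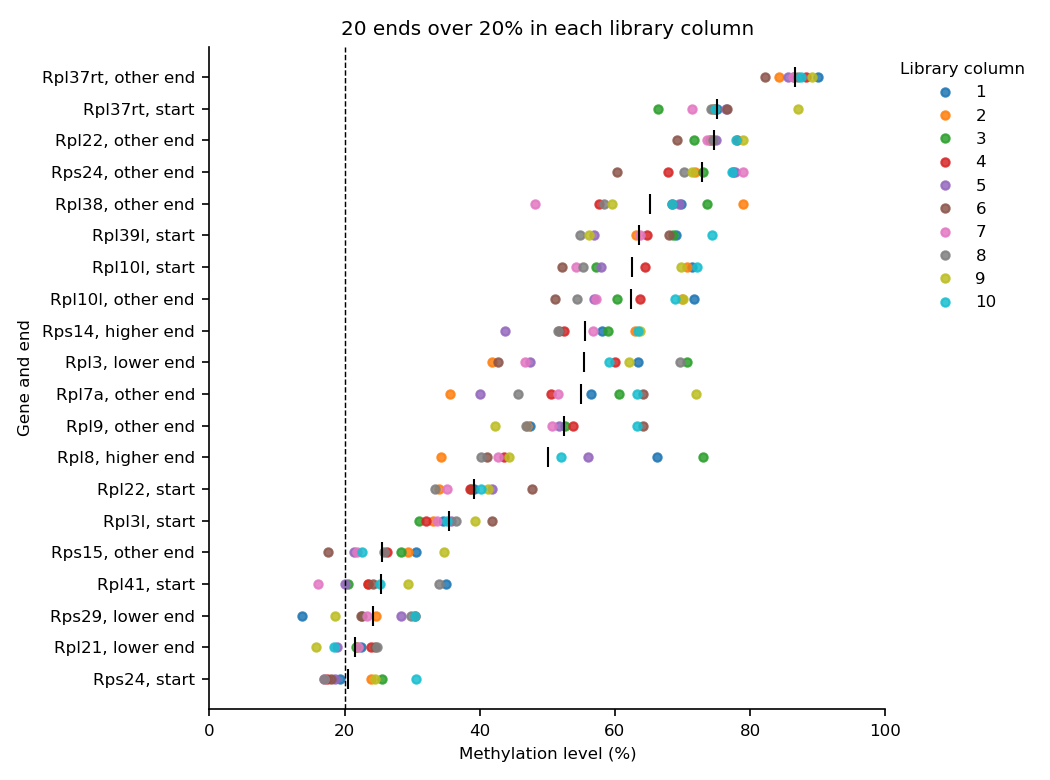
Methylation level in percent (horizontal axis) of 20 of the 21 member ends over 20% (vertical axis, gene and end) in each of the 10 library columns (coloured points), with the level over the summed columns as a black bar and 20% as a dashed line. No column is highest at more than 5 ends, and single columns fall below 20% only at Rps24, Rpl21, Rps29, Rpl41 and Rps15.

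The spread between columns at methylated ends was wide, and no column led throughout. Between 19 and 21 member ends were over 20% in single columns. Column 9 was highest at 5 of the 21 ends and lowest at 2, and column 6 lowest at 6 and highest at 3. At the Rpl10l start the lowest column, 6, had 52.1% (interval 49.8 to 54.4%, 1873 calls) and the highest, 10, had 72.2% (interval 69.9 to 74.4%, 1479 calls). These are the extremes of 10 libraries, and the intervals cover counting error only. At the Rpl8 higher end, with 111 and 104 calls in the lowest and highest columns, the range from 34.2% to 73.1% rests on few calls. Which columns are arsenic samples is not known, so these ranges mix the groups.

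The 2 strands of a CG pair differed little at member ends. Over 1652 pairs the median difference was 0.563 percentage points, against 2.29 over 647386 autosomal pairs. Among the member pairs 2, or 0.121%, differed by more than 50 points, against 1.34% of the autosomal pairs. As 73 of the 96 member ends were under 10%, most member pairs could hardly differ that much. The 2 sets of pairs are thus not alike in level, and the shares do not compare strand agreement. The 2 member pairs that differed by more than 50 points lie at the other end of Rpl22 on chromosome 4. At 152333433 the plus strand had 80.8% and the minus strand 7.27%, and at 152333583 the plus strand had 22.9% and the minus strand 77.0%. The reason for these differences was not tested.

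Sequence features that the rule did not use set the members' promoters beside all promoters. The TOP motif, here a C at the listed start followed by at least 4 pyrimidines, was found at 15 of 77 member starts, which is 19.5%, and at 2.23% of 20085 protein-coding starts. Members with it include Rps6, Rpl35, Rplp2, Rps18 and Rpl38. Of the copies, Rpl32l and Rps27rt carry it, whereas Rpl10l, Rpl39l, Rpl37rt and Rpl3l lack it at their listed starts, as do Rpl22l1, Rpl36al, Rpl7l1, Rps27l and Rps23rg1. Rpl4 and Rpsa lack it at their listed starts too. A tract that begins just past the listed base is not counted, as in the Rpl13a sequence above. A start scored without the motif may therefore still have such a tract nearby. The ETS core CCGGAAG was in 33.8% of member and 11.9% of all promoters, on either strand as for the motifs that follow, among them that of Rpl39l. The string AAGATGGC, the core of the YY1 motif, was in 10.4% and 3.06%, and TATAAA in 7.79% and 12.7%. CCGG, the cut site of the enzyme MspI and part of the ETS core, was in 88.3% and 63.5%. These are matches of letters and not sites of binding.

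Other genes of protein synthesis, from lists fixed with earlier results known, also had low median levels at their starts. For members this median was 1.44%, with 7 of 56 starts, or 12.5%, over 20%. For all protein-coding starts it was 2.17%, with 17.2% over 20%. Of 57 measured starts of mitochondrial ribosomal protein genes, 4 were over 20% and the median was 1.22%, the 4 being Mrpl12 at 67.6% over 3 positions, Mrps31 at 26.2%, Mrps21 at 25.1% and Mrpl42 at 20.6%. Of 47 starts of genes named as initiation and elongation factors, 1 was over 20%, that of Eef1akmt2, a methyltransferase of an elongation factor, at 27.7%, and the median was 1.19%. Of 45 starts of ribosome assembly and RNA polymerase I genes, 3 were over 20%, Nop10 at 62.7%, Ltv1 at 43.3% and Taf1c at 21.3%, and the median was 1.23%. Fau and Rack1, which encode ribosomal proteins under other names, had 1.59% and 1.33%. The ends opposite the start were less alike. Over 20% were 15 of 22 in the mitochondrial list, 11 of 13 in the factor list and 12 of 13 in the assembly list. Their medians were 68.8%, 66.3% and 74.9%. Members had 8 of 16 over 20% and a median of 17.4%, and 81.9% of all such protein-coding ends were over 20%.

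Coverage summed over positions ranged from 73509873 to 127743904 per column, the lowest coverage of a position in a column was 10 reads, and positions on autosomes averaged 41.1% in the median column with a range from 40.1% to 42.7%. The 10 members with no measured end are Rps27, Rps16, Rpl27a, Rps23rg1, Rps27l, Rps27rt, Rpl32l, Rps2, Rps28 and Rpl17. For Rps2, a protein of the entry of the messenger RNA channel, the listed start lies 1942 bp inside the gene's outermost base, and the 66 positions within 1000 bp of it had 0.650%. An end without 3 positions says nothing about its methylation.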

How the data were processed

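Per the labels' protocols, embryo DNA was taken up in phenol-chloroform, and reduced representation bisulfite libraries followed. Per the submitters' processing notes, Trim Galore, Bismark, methylKit and the build mm10 were used, with no version given in the sources used here. Deposited were raw counts per cytosine and library column, namely coverage, methylated calls and unmethylated calls, per the file headers. Of 2137826 rows, 2 that repeated a position were left out. The 10 sets of counts carry only numbers, 0 of their columns could be tied to a sample, and the planned comparison of arsenic with control by a logistic model was not run. Levels are summed methylated calls over summed coverage, on autosomes.

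Gene ends came from a RefSeq gene table (GRCm38.p6), and strand and starts from a RefSeq promoter table that held 65 of the 85 members. The members and lists were chosen with earlier results of these data known. Named genes are the ends over 20%, the 5 next below, the 5 lowest starts, the 5 ends under 20% with the widest column range, the variant copies and well-known members. Others named were chosen after their values were seen. The level function was tested on 2000 simulated gene ends, where it differed from the known level by at most 2.14 percentage points and 4 ends fell on the wrong side of 20%. Rps24 and Rpl21 lie within that distance of 20%. Each simulated end had the same level at all its positions, however, so the distance does not cover windows of unlike parts such as these. Python 3.11.15, numpy 2.4.6, scipy 1.17.1, pandas 2.3.3 and matplotlib 3.10.9 were used. Alternatives covered coverage, window, number of positions, weighting, highly covered positions, overlapping windows and single columns. Some members and list genes that the rule names are not reported here by name, but counts and medians include them.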

Additional observations from a re-analysis of the deposited data

Results flagged for a closer look

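Over the 10 library columns, 23 measures were examined with Dixon's test for a column that lies apart from the others, namely the median levels of starts and of other ends and the 21 ends over 20%. A single such measure is marked by chance about 1 time in 20. Of the 23 measures 1 was marked, which is about what that rate gives. At the start of Rpl37rt, the retrotransposed copy, column 9 had 87.1% and the other columns 66.3% to 76.6%. This end has 6 positions, and column 9 had 280 calls there (95% Wilson interval 82.7 to 90.6%).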

How the results depend on the processing

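No paired analysis was possible because no library column could be tied to a sample, so the replicate numbers of the titles could not be used. The median of member starts, 1.44% over 56 ends, was 1.24% at a coverage of at least 20 reads, 1.07% with windows of 500 bp, 3.12% with windows of 2000 bp, 1.58% with positions weighted equally and 0.968% in the 300-base promoters, the last chosen after seeing the data. The median of other ends, 17.4% over 16 ends, was 10.7% at a coverage of at least 20 reads (11 ends), 25.8% with windows of 500 bp (5 ends), 10.2% with windows of 2000 bp (37 ends) and 6.86% with at least 5 positions (14 ends). The number of ends over 20%, 21 of 96, was 11 of 79 with windows of 500 bp and 34 of 128 with windows of 2000 bp. With single columns left out, the median of starts ranged from 1.39% to 1.47%, that of other ends from 16.7% to 17.8%, and the number over 20% from 20 to 21. Of 109 values of the 21 single ends under other coverage minimums, windows, numbers of positions, weights or sharing of positions, 17 moved by more than 1 SD over the columns. Under 20% fell 7 ends in at least 1 alternative, among them Rps24 and Rpl21 with windows of 500 bp, Rpl7a, Rps15, Rpl41 and Rpl8 with windows of 2000 bp, and Rps24 and Rpl21 with equal weights. At a coverage of at least 20 reads, 16 of the 21 ends still had at least 3 positions.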

Other observations

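The X chromosome holds 4 further genes of the same name pattern, of which 3 had a measured start. Rpl39, the source gene of Rpl39l, had 15.4% over 12 positions, with columns from 7.14% to 22.0%. Rpl10, the source gene of Rpl10l, had 4.54% over 11 positions, with columns from 0 to 12.8%. Rps4x had 5.23% over 31 positions, with columns from 2.76% to 10.99%. These levels lie below those of Rpl39l and Rpl10l in each column. Embryo sex is not in the labels.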
